A study of Homo sapiens with 9 samples.

Results

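The genes described here encode the nuclear subunits of the oxidative phosphorylation complexes. They were chosen by gene symbol alone, as those beginning with NDUFA (without the NDUFAF assembly factors), NDUFB, NDUFC, NDUFS, NDUFV, UQCR, COX4 to COX8 or ATP5, together with SDHA, SDHB, SDHC, SDHD and CYC1. This gave 87 of the 18430 genes in the deposited table: 38 of complex I, 4 of complex II, 10 of complex III, 16 of complex IV and 19 of complex V. NDUFA4 and NDUFA4L2 were counted with complex IV, where the NDUFA4 protein sits. The 9 RNA-seq libraries came from A375, a human melanoma line in long use, labelled BRAFV600E. Every group, controls included, thus carried the mutation that activates BRAF. The 3 controls were kept in normal culture, and their labels give no collection day. A second set of 3 was exposed for 3 days to vemurafenib at 10 µM, which blocks mutant BRAF. The remaining 3 were exposed for 1 day to cisplatin at 2 µM, which damages DNA by forming platinum crosslinks. After drug removal, cells of either treatment grew on until collection at day 7. Dose, exposure and the time without drug differed between the drugs, so the effect of the drug and that of the schedule cannot be told apart.

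Oxidative phosphorylation makes ATP in the inner mitochondrial membrane. Complex I (NADH dehydrogenase) and complex II (succinate dehydrogenase) pass electrons to ubiquinone, complex III (cytochrome bc1) passes them to cytochrome c, and complex IV (cytochrome c oxidase) passes them to oxygen. Complexes I, III and IV pump protons as they do so, and complex V (ATP synthase) uses the proton gradient to make ATP. A few core subunits are encoded in mitochondrial DNA and all others in the nucleus. Nuclear subunit genes are known targets of the transcription factors NRF1, GABPA, YY1 and ESRRA and of their coactivator PPARGC1A (PGC-1α). In melanoma, PPARGC1A can act downstream of the melanocyte factor MITF, and BRAF inhibition is known to shift many melanoma lines towards respiration.

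The libraries held 14481020 to 16038475 estimated counts each, and 84 of the 87 genes passed the filter on low counts. Whether replicates were separate cultures is not in the labels, and the spread behind each p-value may therefore be technical. All 10 melanocyte and neural crest markers were in the table and none was at 0 throughout a group, with a summed level of 1065 to 1216 CPM (read counts on a common library total, scaled by TMM) in controls, 1687 to 2096 after vemurafenib and 1006 to 1054 after cisplatin. Blood markers, of which PTPRC, CD3E and HBB were at 0 in all controls, summed to at most 1.79 CPM in any library. Endothelial markers summed to 19.4 to 24.0 CPM in controls, 11.8 to 29.3 after vemurafenib and 53.5 to 61.1 after cisplatin (CDH5 at 0 in controls and vemurafenib libraries). Fibroblast markers summed to 21.3 to 25.5, 30.8 to 42.1 and 17.1 to 30.2 CPM in the same order. Epithelial markers summed to 285.7 to 322.2, 84.9 to 131.0 and 225.7 to 246.9 CPM (CDH1 at 0 in controls and vemurafenib libraries). The part of these marker differences in the results below was not tested. In bulk RNA, fewer cells of a type and less RNA per cell cannot be told apart.

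Vemurafenib replicate 1 stood apart, and it did so by transcript length. The 84 tested subunit genes had a median effective length of 684 bases, against 2985 for all 13989 tested genes, and 53 of the 84 (63.1%) were under 1000 bases, against 6.88% of all. In 77 of the 84, replicate 1 was higher than both other vemurafenib libraries. The median log2 difference between replicate 1 and the mean of replicates 2 and 3 was 0.49 for the subunit genes and -0.01 for the other genes. Within lengths of 500 to 1000 bases the medians were 0.54 for 28 subunit genes and 0.51 for 770 other genes. Within 2000 to 4000 bases they were 0.15 (10 genes) and 0.02 (5640 genes). Values without this library are therefore given beside the main vemurafenib results.

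**Figure D1:**
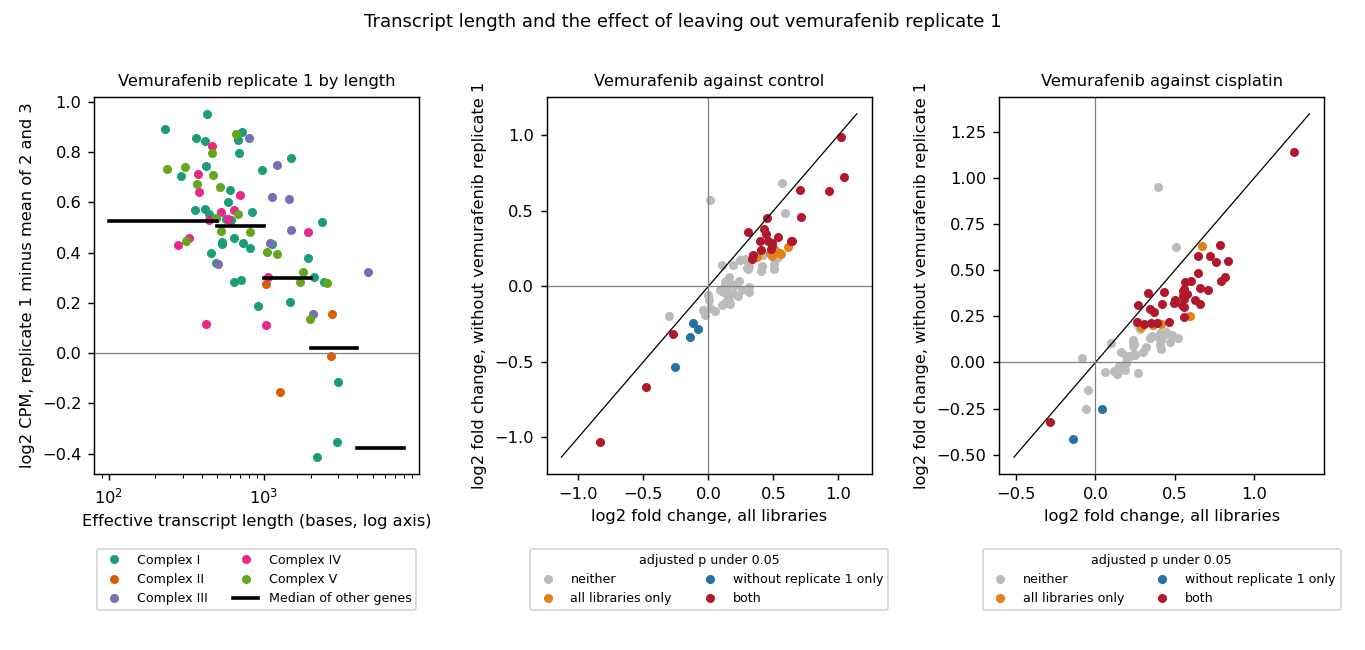
Left, log2 CPM of vemurafenib replicate 1 minus the mean of replicates 2 and 3 for each tested subunit gene, against its effective transcript length on a log axis, with black lines for the median of other genes in each length range. Middle and right, fitted log2 fold changes with all libraries against those without replicate 1, coloured by which fit passed an adjusted p of 0.05. Most points lie above 0 on the left, and most points on the middle and right lie below the diagonal.

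Compared per transcript length, the most abundant subunit messages in controls were small ones. On the TPM scale (length-corrected transcript levels, as deposited), ATP5F1E, the epsilon subunit of ATP synthase, stood at 1129 ± 60.4 (SD, n = 3), COX7C at 1084 ± 56.4 and COX6A1 at 1080.5 ± 11.05. COX8A was at 860.8 ± 13.3, the ATP synthase c-ring gene ATP5MC2 at 813.1 ± 46.6 and the catalytic beta subunit gene ATP5F1B at 809.3 ± 46.0. The levels of ATP5F1E, COX7C and COX6A1 do not differ beyond their spread, and neither do those of ATP5MC2 and ATP5F1B. The median gene was at 142.1 TPM, and 58 of the 87 were above 100 TPM. Isoforms tied to other tissues or states were low. COX7B2, a testis-type copy of COX7B, was at 9.20 ± 2.61 TPM, against 317.5 ± 23.6 for COX7B. NDUFA4L2, a paralogue of NDUFA4 known to be induced by HIF1, was at 2.75 ± 0.418 TPM, against 77.8 ± 3.89 for NDUFA4. The muscle-type COX7A1 had 4 counts in all 9 libraries together, the testis-type COX6B2 had 46 and the UQCRH copy UQCRHL had 1, and these 3 were not tested. COX4I2, COX6A2, COX8C and the 13 genes of mitochondrial DNA were not analysed here.

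Summed over the 87 genes, the subunits took 1.99% to 2.09% of all TPM in controls. They took 2.78%, 2.32% and 2.40% in vemurafenib replicates 1, 2 and 3, and 1.97% to 1.99% after cisplatin. All 3 vemurafenib libraries thus lay above the controls, and the cisplatin libraries lay at their lower edge. On the CPM scale, where long messages weigh more, the sums were 7620 to 7739 in controls, 10898, 7673 and 7938 in the vemurafenib libraries, and 6729 to 7258 after cisplatin. There vemurafenib replicate 2 lay within the control range. By complex, the share of TPM was higher in all 3 vemurafenib libraries than in any control for each of the 5 complexes. On the CPM scale this did not hold: for complex III, vemurafenib replicates 2 and 3 (1013 and 1037 CPM) were below all controls (1047 to 1085), and for complex IV replicate 2 (1335) was below all controls (1420 to 1479). For complex I the share of TPM was 0.575% to 0.627% in controls, 0.730% to 0.893% after vemurafenib and 0.588% to 0.595% after cisplatin. The share of complex III was lower in every cisplatin library (0.158% to 0.165%) than in every control (0.180% to 0.185%). For complex IV the cisplatin libraries (0.551% to 0.567%) also lay below the controls (0.568% to 0.577%), by a narrow margin.

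**Figure D2:**
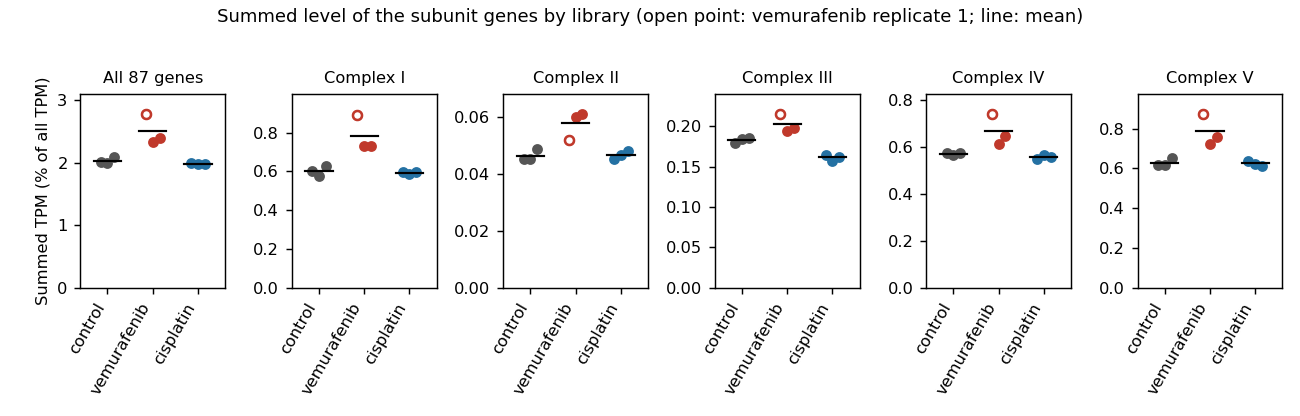
Summed TPM of the subunit genes as a percentage of all TPM, for all 87 genes and for each complex (points, libraries; line, group mean; open point, vemurafenib replicate 1). Each vemurafenib library is above the controls in every panel, and for the complex III and IV genes the cisplatin libraries are below them.

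Vemurafenib against control asked which subunit genes differed between cells collected on day 7, after the BRAF inhibitor had been withdrawn, and the untreated controls. More subunit genes were higher than lower, by small amounts. Of 84 tested, 28 rose, 3 fell and 53 did not pass, where 22.0% of all tested genes rose and 22.9% fell (edgeR's quasi-likelihood test, adjusted p under 0.05). The median log2 change was 0.31, against 0.01 for all genes. Among all 962 tested genes under 1000 bases, 23.3% rose and 12.4% fell, with a median of 0.15. Of the 53 subunit genes of that length, 37.7% rose and 1.89% fell (median 0.33). Without vemurafenib replicate 1, 24.5% of these 53 rose and 9.43% fell (median 0.13). In that fit 20.4% of all genes under 1000 bases rose and 28.5% fell (median -0.07). Among genes of 1000 bases or more, 25.8% of the 31 subunit genes and 21.9% of all genes rose (22.6% and 26.7% without vemurafenib replicate 1). Without vemurafenib replicate 1, 20 subunit genes rose and 7 fell (26.2% and 27.9% of all genes), and the median was 0.14. The share of subunit genes that rose was thus 33.3% with all libraries, above the share over all genes, and 23.8% without that library, below it. The share that fell, 3.57% or 8.33%, was below it both times. The 3 libraries of each group did not overlap for 38 genes that were higher and 4 that were lower, where the shares over all genes were 25.8% and 27.0%. Without replicate 1 they did not overlap for 39 and 17 (34.6% and 35.4% of all genes). With a transcript-length trend fitted in each library, 29 rose and 8 fell (24.3% and 26.4% of all genes). With both changes, 32 rose and 8 fell (25.7% and 29.1%), a setting chosen after seeing the data. With the replicate number as a block, 30 rose and 3 fell (22.8% and 23.9%). The number that rose was 12, 8 and 11 when control replicate 1, 2 or 3 was left out. These are 14.3%, 9.52% and 13.1% of the subunit genes, below the shares of all genes in the same fits, which were 17.8%, 16.96% and 16.8%.

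By complex, the rises were 15 of 38 genes in complex I with 1 fall, 2 of 4 in complex II, 4 of 9 in complex III with 1 fall, 3 of 14 in complex IV with 1 fall, and 4 of 19 in complex V. The shares in complexes IV (21.4%) and V (21.1%) were near that of all genes (22.0%), and those in complexes I (39.5%), II (50%) and III (44.4%) were above it. Without vemurafenib replicate 1, the rises were 11 in complex I with 2 falls, 2 in complex II, 4 in complex III with 2 falls, 2 in complex IV with 2 falls, and 1 in complex V with 1 fall. The shares that rose were 28.9%, 50%, 44.4%, 14.3% and 5.26% from complex I to complex V, where 26.2% of all genes rose. Complex I was in that fit near the share of all genes, and complexes IV and V were below it. The medians were then 0.18, 0.21, -0.03, -0.02 and 0.03 from complex I to complex V. Of the 28, 20 also rose without replicate 1, and 8 did not pass. The 5 most abundant of those 8 were COX6B1, ATP5F1C, ATP5MF, ATP5PF and NDUFB2. Genes that passed without that library were COX6A1, UQCRH, NDUFB10 and ATP5IF1, and all 4 were lower.

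**Figure D3:**
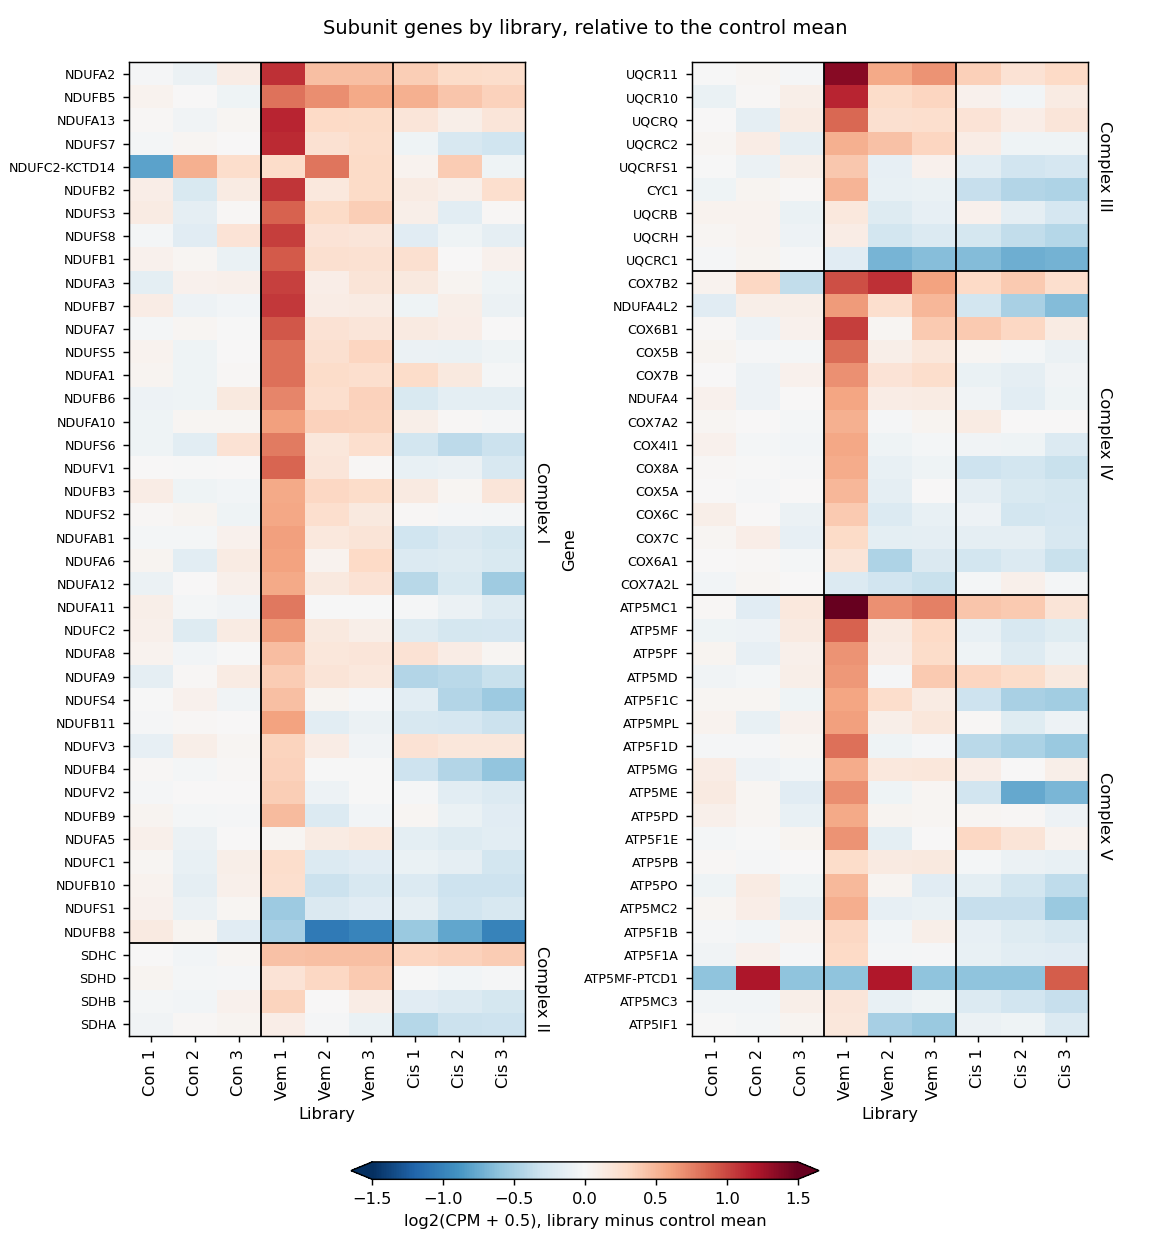
Level of each of the 84 tested subunit genes in each library (Con, control; Vem, vemurafenib; Cis, cisplatin), as log2(CPM + 0.5) minus the control mean, grouped by complex and ordered by the change after vemurafenib. Red is above and blue below the control mean, and colours are capped at 1.5. Vemurafenib replicate 1 is the reddest column, while NDUFB5, SDHC, UQCR11 and ATP5MC1 are red in all 3 vemurafenib libraries and NDUFB8 and UQCRC1 are blue in all 6 treated ones.

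A set of 8 genes rose, and 2 fell, under all 20 alternatives, which included leaving out each library in turn. How many of all genes held in this way is not given. These counts therefore cannot be set against a share over all genes. In complex V this was ATP5MC1, one of 3 genes for the c subunit of the rotor ring of ATP synthase. Its CPM was 30.8, 27.0 and 34.0 in controls, 87.9, 49.3 and 51.9 after vemurafenib, and 40.7, 40.1 and 35.0 after cisplatin. The vemurafenib libraries lay above all others. The log2 change was 1.04 (SE 0.20, edgeR adjusted p = 0.00131), or 0.73 without replicate 1. The other c-subunit genes, whose mature proteins are the same, did not pass: ATP5MC2 had a log2 change of 0.14 and ATP5MC3 of 0.01.

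In complex III the rises included UQCR11, a small subunit at the edge of the cytochrome bc1 dimer, and UQCRC2, one of its pair of large core proteins. UQCR11 was at 48.7, 50.1 and 48.2 CPM in controls and 127.3, 73.1 and 78.6 after vemurafenib, with no overlap. Its log2 change was 0.92 (SE 0.18, edgeR adjusted p = 0.00135), or 0.63 without replicate 1. UQCRC2 was at 128.2, 135.4 and 114.6 against 182.4, 170.5 and 157.0 CPM, also without overlap (log2 change 0.43, SE 0.11, or 0.38 without replicate 1). The partner core protein gene moved the other way. UQCRC1 went from 188.8, 197.2 and 189.2 CPM to 170.0, 118.5 and 123.4. Every vemurafenib library was below every control, and here replicate 1 lay nearest the controls. It fell by 0.48 on the log2 scale (SE 0.13, edgeR adjusted p = 0.0106), and by 0.66 without replicate 1.

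In complex I, NDUFB5, an accessory subunit of the membrane arm, was at 42.1, 40.7 and 38.5 CPM in controls and 71.6, 65.9 and 59.97 after vemurafenib. Its log2 change was 0.70 (SE 0.11, edgeR adjusted p = 0.000234), or 0.64 without replicate 1. NDUFA2 rose by 0.71 (0.46 without replicate 1) and NDUFA10 by 0.44 (0.35 without it), both accessory subunits. NDUFB8, another membrane-arm subunit whose protein is widely used as a marker of assembled complex I, was lower. Its CPM was 171.0, 161.4 and 138.4 in controls and 110.7, 74.8 and 78.6 after vemurafenib. The groups did not overlap, and NDUFB8 fell by 0.83 (SE 0.16, edgeR adjusted p = 0.00161), or by 1.03 without replicate 1. The core electron-transfer genes NDUFS1 (log2 change -0.30, adjusted p = 0.0506 by edgeR) and NDUFV1 (0.41, 0.0903) did not pass.

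In complex II, SDHC, a membrane anchor of succinate dehydrogenase, was at 125.7, 121.6 and 127.7 CPM in controls and 169.5, 170.6 and 171.6 after vemurafenib. The groups did not overlap, and replicate 1 lay with the other vemurafenib libraries. The log2 change was 0.45 (SE 0.09, edgeR adjusted p = 0.00123), and also 0.45 without replicate 1. The catalytic subunit genes SDHA (-0.01) and SDHB (0.16) did not pass. In complex IV, COX7B2 rose by 1.02 (SE 0.25, edgeR adjusted p = 0.00575, or 0.98 without replicate 1) from a low level, from 2.15, 2.65 and 1.48 CPM to 4.49, 4.93 and 3.37. The housekeeping subunits of cytochrome c oxidase COX4I1 (0.19), COX5A (0.15), COX6C (0.05), COX7A2 (0.21), COX7C (0.01) and COX8A (0.16) did not pass with all libraries, and those values lay between -0.16 and 0.01 without replicate 1.

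**Figure D4:**
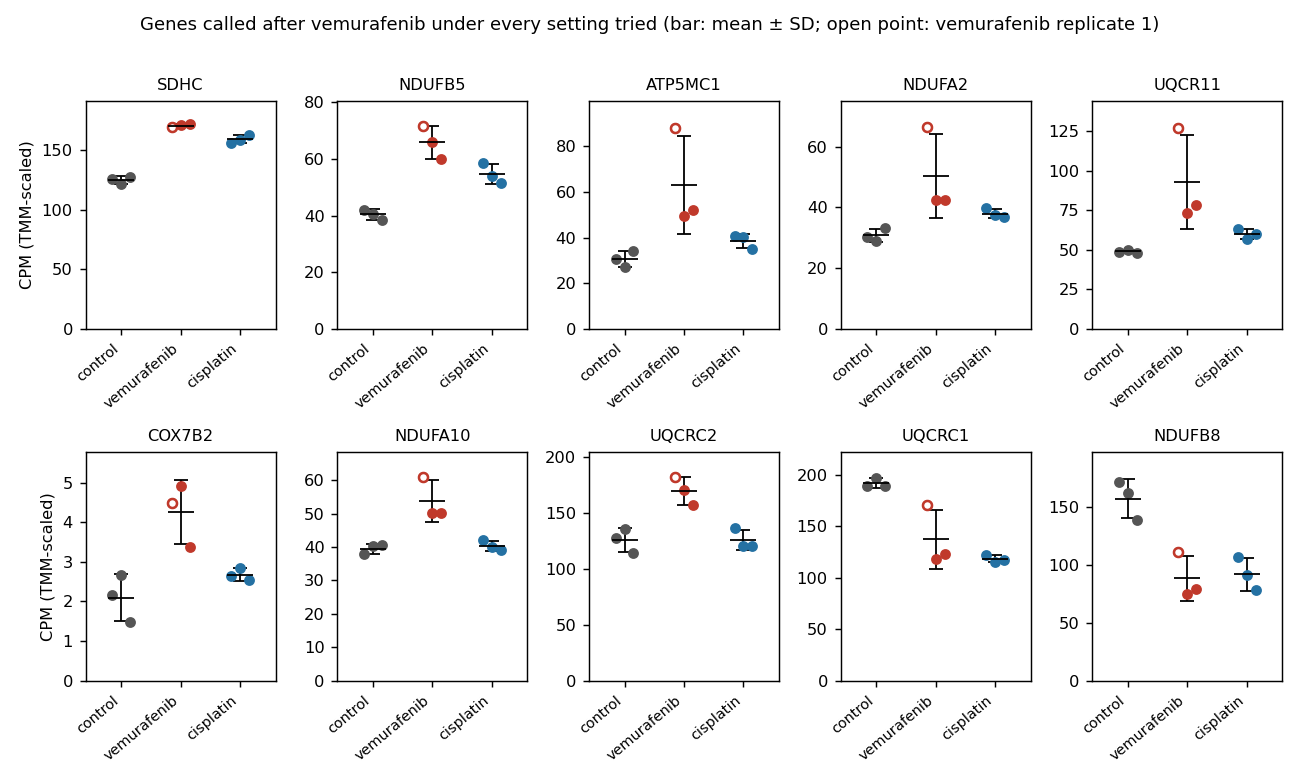
CPM in each library of the 10 subunit genes called after vemurafenib under every alternative (bar, mean ± SD of 3 libraries; open point, vemurafenib replicate 1). The first 8 genes are higher and the last 2 lower in all 3 vemurafenib libraries than in all controls.

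Other genes named by size of change held less firmly. In complex I, NDUFA13 rose by 0.64 (0.30 without vemurafenib replicate 1). In complex II, SDHD, the other membrane anchor, rose by 0.31 (0.36 without it). In complex III, UQCR10 rose by 0.64 and UQCRQ by 0.48 (0.30 and 0.25). In complex IV, COX6B1 rose by 0.55 and COX7B by 0.41 (0.22 and 0.24), and in complex V ATP5MF rose by 0.48 and ATP5PF by 0.37 (0.22 and 0.20). The calls of NDUFA13, UQCR10 and COX7B were lost without control replicate 1, 2 or 3 (adjusted p by edgeR up to 0.065, 0.0829 and 0.0876). SDHD was lost when vemurafenib replicate 3 or control replicate 2 or 3 was left out (up to 0.082) and with the length offset (0.142), and UQCRQ without control replicate 1 or 2 (up to 0.106). COX6B1 (up to 0.13) and ATP5MF (up to 0.119) were lost without any 1 control or cisplatin library or vemurafenib replicate 1. ATP5PF (up to 0.153) was lost without any 1 library but vemurafenib replicate 2, and with size factors from DESeq2. With only the compared groups in the fit, SDHD, UQCR10, UQCRQ, COX6B1, COX7B, ATP5MF and ATP5PF were lost as well. NDUFAB1, the mitochondrial acyl carrier protein of complex I, rose by 0.34 (edgeR adjusted p = 0.0439), a call that held under 9 of 20 alternatives. It was lost with the replicate number as a block (adjusted p = 0.0533 by edgeR) and without any 1 control or cisplatin library (up to 0.12). It was also lost with the length offset, with size factors from DESeq2, without a filter on low counts and with only the compared groups.

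Subunits with regulatory roles were mixed. COX7A2L, which helps join complexes III and IV into supercomplexes, was at 44.9, 47.2 and 46.2 CPM in controls and 40.1, 37.6 and 36.5 after vemurafenib, without overlap. It fell by 0.28 (SE 0.09, edgeR adjusted p = 0.0332). The call held under 8 of 20 alternatives. It was lost without any 1 control library, vemurafenib replicate 2 or 3 or cisplatin replicate 1 or 2 (up to 0.0976). It was also lost with total counts as the only scaling, without a filter on low counts, by limma on either TPM scale and with only the compared groups. ATP5IF1, the inhibitor that blocks reverse rotation of ATP synthase, was at 70.7, 69.5 and 73.4 CPM in controls and 80.4, 50.3 and 48.0 after vemurafenib. Replicate 1 lay above and the other two below all controls. The log2 change was -0.26 with all libraries (edgeR adjusted p = 0.239) and -0.53 without replicate 1 (adjusted p = 0.000105 by edgeR).

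Cisplatin against control served as the DNA-damage arm of the same design. Subunit genes were slightly lower by their median, and most did not pass. Of 84 tested, 2 rose, 11 fell and 71 did not pass (22.7% and 23.5% of all genes), with a median log2 change of -0.12 against 0.00 for all genes. Both shares of the subunit genes, 2.38% and 13.1%, were below those of all genes. The 3 libraries of each group did not overlap for 41 genes that were lower and 10 that were higher (33.8% and 33.1% of all genes). By complex, the falls were 4 in complex I, 1 in complex II, 3 in complex III and 3 in complex V. The counts moved with the libraries in the fit. Without vemurafenib replicate 1, which is in neither group, 8 rose and 28 fell (29.8% and 31.2% of all genes), and with the 6 libraries of these groups alone 8 rose and 27 fell (30.3% and 31.5% of all genes). In both settings the share of subunit genes that fell (33.3% and 32.5%) was near that of all genes, and more subunit genes passed after cisplatin than after vemurafenib, the reverse of the order with all 9 libraries in 1 fit. With the length trend 9 rose and 15 fell (25.7% and 27.2% of all genes), and with the trend and without that library 11 rose and 26 fell (29.6% and 31.5%). With the replicate block 2 rose and 14 fell (24.1% and 24.9%). On the log2(TPM + 1) scale, by limma, 7 rose and 14 fell (23.5% and 19.2% of all genes). Falls numbered 6 without any 1 control library or without cisplatin replicate 2 (18.8% to 20.2% of all genes), and 4 without cisplatin replicate 3 (19.2%).

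The falls that held under every alternative were UQCRC1, NDUFB8 and SDHA. UQCRC1 was at 122.2, 115.4 and 117.2 CPM after cisplatin, below all controls, and fell by 0.70 (SE 0.13, edgeR adjusted p = 0.00114). NDUFB8 was at 106.2, 90.8 and 77.7 CPM and fell by 0.78 (SE 0.16, edgeR adjusted p = 0.00242). SDHA, the flavoprotein that oxidises succinate, went from 128.1, 133.8 and 136.0 CPM to 98.8, 106.1 and 107.0 and fell by 0.35 (SE 0.09, edgeR adjusted p = 0.00959). The vemurafenib libraries of SDHA (141.6, 131.1 and 123.2 CPM) overlapped the controls.

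The 2 genes that rose were SDHC and NDUFB5, and both calls held under every alternative. SDHC was at 156.0, 158.5 and 162.9 CPM, above all controls (log2 change 0.35, SE 0.09, edgeR adjusted p = 0.00572). NDUFB5 was at 58.6, 54.2 and 51.4 CPM, also above all controls (log2 change 0.44, SE 0.11, edgeR adjusted p = 0.00536). Both drug comparisons use the same controls. With all libraries, the subunit genes called higher after both drugs were SDHC and NDUFB5, and those called lower after both were UQCRC1 and NDUFB8, where 11.4% and 12.3% of all genes were. Without vemurafenib replicate 1, ATP5MC1, NDUFA13, NDUFA2 and UQCR11 were also higher after both, and COX6A1, NDUFB10 and UQCRH were also lower after both. That made 6 and 5 of 84 (7.14% and 5.95%), where 15.8% and 17.5% of all genes were.

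Several falls named by size lost their call when a single library was left out. CYC1, the cytochrome c1 of complex III, fell by 0.42 (104.8, 98.7 and 96.8 CPM against 128.3, 137.7 and 135.1), NDUFB4 by 0.44, NDUFA9 by 0.40 and UQCRH by 0.36. In ATP synthase, ATP5ME fell by 0.58, ATP5F1C, the gamma shaft, by 0.44 and ATP5MC3 by 0.28. The call of NDUFB4 was lost without cisplatin replicate 3 (adjusted p = 0.0553 by edgeR), that of NDUFA9 without control replicate 3 (0.0547) and that of ATP5F1C without cisplatin replicate 2 or 3 (up to 0.0577). CYC1 (up to 0.116) was lost without any 1 control or cisplatin library, and UQCRH (up to 0.0919) without control replicate 1 or 2 or cisplatin replicate 2 or 3. ATP5ME (up to 0.136) was lost without any 1 control library or cisplatin replicate 2 or 3. ATP5MC3 (up to 0.174) was lost without any 1 library but vemurafenib replicate 1. The 5 most abundant of the 17 further genes that fell when vemurafenib replicate 1 was left out were ATP5F1B, COX6A1, ATP5MC2, COX8A and COX5A.

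Upstream sequences are shown for some of the genes called after vemurafenib under every alternative. The 250 bases before the RefSeq transcription start (GRCh38.p14) are printed for ATP5MC1 and UQCR11, which rose after vemurafenib, and for NDUFB8 and UQCRC1, which fell after both drugs. Each runs 5′ to 3′ on the gene's strand. Capitals mark matches on either strand to the words GCATGCGC (core of the NRF1 motif), CCGGAAG (ETS factors such as GABPA), AAGATGGC (YY1) and ACGTG or GCGTG (core of the hypoxia response element), and overlapping matches merge.
ATP5MC1, chr17:48892537-48892786, plus strand: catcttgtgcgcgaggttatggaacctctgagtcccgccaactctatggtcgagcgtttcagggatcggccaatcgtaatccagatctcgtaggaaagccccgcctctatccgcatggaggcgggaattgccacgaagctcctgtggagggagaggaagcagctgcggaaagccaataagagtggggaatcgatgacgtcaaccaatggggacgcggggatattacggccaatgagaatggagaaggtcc
UQCR11, chr19:1605463-1605712, minus strand: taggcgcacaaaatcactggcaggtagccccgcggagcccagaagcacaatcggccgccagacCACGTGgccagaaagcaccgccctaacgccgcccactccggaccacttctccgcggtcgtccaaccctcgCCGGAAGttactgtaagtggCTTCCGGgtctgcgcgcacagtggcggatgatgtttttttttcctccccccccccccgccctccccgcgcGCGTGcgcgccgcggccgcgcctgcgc
NDUFB8, chr10:100529924-100530173, minus strand: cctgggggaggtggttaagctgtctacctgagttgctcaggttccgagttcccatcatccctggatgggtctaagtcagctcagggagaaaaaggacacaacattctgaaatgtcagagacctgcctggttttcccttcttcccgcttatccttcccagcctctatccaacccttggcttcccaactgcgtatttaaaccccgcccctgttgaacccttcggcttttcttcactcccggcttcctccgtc
UQCRC1, chr3:48609647-48609896, minus strand: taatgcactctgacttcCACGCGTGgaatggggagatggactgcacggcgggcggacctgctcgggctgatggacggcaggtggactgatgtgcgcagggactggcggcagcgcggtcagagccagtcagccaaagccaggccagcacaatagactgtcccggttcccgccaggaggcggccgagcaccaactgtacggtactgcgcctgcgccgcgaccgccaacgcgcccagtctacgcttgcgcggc

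UQCR11 held the ETS word in both orientations, at 117 to 111 and 97 to 91 bases before the start, and hypoxia words at 187 to 182 and 27 to 23. UQCRC1 held hypoxia words only, at 233 to 226. No searched word was in the windows of ATP5MC1 and NDUFB8, which says only that these letters are not there. RefSeq lists 2 starts for NDUFB8, and the first is shown. Of the 71 subunit genes found in the promoter table, 13 (18.3%) held the NRF1 word, 18 (25.4%) the ETS word, 1 (1.41%) the YY1 word and 45 (63.4%) a hypoxia word. Of all 35116 promoters with the same window, 2.63%, 8.52%, 1.36% and 43.2% did. These shares are not counted alike. A subunit gene counted if any of its listed starts held the word, while each promoter of any gene counted singly. SDHC and NDUFB5 were not among the 71. By the RefSeq annotation, ATP5MC1 (gene identifier 516) lies at 17:48892787-48895871, UQCR11 (10975) at 19:1597169-1605462, NDUFB8 (4714) at 10:100523729-100529923, UQCRC1 (7384) at 3:48599002-48609646, SDHC (6391) at 1:161314381-161363206 and NDUFB5 (4711) at 3:179604794-179627647.

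The direct test of vemurafenib against cisplatin showed higher levels of many subunit genes after vemurafenib. Of 84 tested, 42 were higher after vemurafenib, 1 was lower and 41 did not pass (23.0% and 20.8% of all genes), with a median log2 difference of 0.40 against 0.03 for all genes. Libraries of the drugs did not overlap for 54 genes that were higher after vemurafenib and 1 that was lower (27.9% and 26.1% of all genes), and without vemurafenib replicate 1 for 54 and 4 (36.6% and 33.0%). By complex, 17 of 38 genes were higher in complex I (44.7%) and 3 of 4 in complex II (75%). In complexes III, IV and V, 5 of 9 (55.6%), 5 of 14 (35.7%) and 12 of 19 (63.2%) were. Without vemurafenib replicate 1 the numbers higher were 17, 3, 3, 4 and 9 from complex I to complex V. The shares were then 44.7%, 75%, 33.3%, 28.6% and 47.4%, and that of complex IV was near the share of all genes (26.5%). Among the 31 subunit genes of 1000 bases or more, 20 were higher (64.5%, where 22.8% of all genes of that length were), and among the 53 shorter ones 22 were (41.5%, where 25.8% were). The shares without vemurafenib replicate 1 were 58.1% (26.9% of all genes) and 34.0% (21.6%). Without vemurafenib replicate 1, 36 were higher and 3 lower (26.5% and 24.0% of all genes), all 36 among the 42, and the median was 0.21. The share higher, 42.9% without that library, was above the share over all genes with it and without it. With the length trend 38 were higher and 4 lower (25.1% and 24.0% of all genes), and with the trend and without that library 36 and 3 (26.0% and 25.1%). With the replicate block 42 were higher and 1 lower (23.9% and 22.1%). The number higher was 27, 23 and 24 without cisplatin replicate 1, 2 or 3 (18.5%, 17.2% and 18.1% of all genes).

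A total of 19 genes were higher after vemurafenib than after cisplatin under every alternative, a count given without the matching one over all genes. They included, in complex I, NDUFA9, a subunit near the ubiquinone site, at 55.3, 48.6 and 47.4 against 31.1, 32.0 and 33.5 CPM (log2 difference 0.65, SE 0.11, edgeR adjusted p = 0.000541). NDUFA12, an accessory subunit, was at 37.1, 27.4 and 28.9 against 18.4, 21.2 and 16.98 CPM (log2 difference 0.72, or 0.58 without vemurafenib replicate 1). Among the NDUFS genes were NDUFS7 (0.82, or 0.47 without that library), NDUFS6 (0.76, or 0.55) and NDUFS5 (0.58, or 0.37), and NDUFAB1 differed by 0.60 (0.44). In complex III they were CYC1 (0.55) and UQCRC2 (0.43). CYC1 was at 190.9, 124.1 and 124.4 CPM after vemurafenib, where replicates 2 and 3 were below all controls, and at 104.8, 98.7 and 96.8 after cisplatin.

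In complex V, the gamma shaft gene ATP5F1C was at 181.1, 144.2 and 130.2 CPM after vemurafenib and 96.1, 85.4 and 83.2 after cisplatin, with the controls (122.5, 122.0 and 114.5) between them. The log2 difference was 0.78 (SE 0.13, edgeR adjusted p = 0.000396), or 0.64 without vemurafenib replicate 1. ATP5F1D, the delta subunit at the foot of that shaft, differed by 0.79 (0.44 without replicate 1), ATP5ME by 0.84 (0.55) and ATP5MF by 0.66 (0.40). ATP5F1B, the catalytic subunit, differed by 0.31 (edgeR adjusted p = 0.0405), and this call was lost without any 1 control or cisplatin library or vemurafenib replicate 3 (adjusted p up to 0.122 by edgeR). ATP5F1A (0.24) did not pass.

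In complex IV, COX7B differed by 0.50 and NDUFA4L2 by 1.25 (SE 0.27, edgeR adjusted p = 0.00272), the latter from low levels of 2.67, 1.93 and 2.39 against 1.18, 0.95 and 0.80 CPM. NDUFA4L2 did not pass in either comparison with controls (1.304, 1.66 and 1.67 CPM). NDUFA4 (0.39) and COX8A (0.46) passed and were lost without control replicate 3 or any 1 cisplatin library (up to 0.111 and 0.0843 by edgeR). COX7B2 (0.67) was lost when any 1 cisplatin library, vemurafenib replicate 1 or 2 or control replicate 1 was left out (up to 0.138). COX7A2L was the 1 gene lower after vemurafenib, by -0.29 (edgeR adjusted p = 0.0287), a call lost without vemurafenib replicate 2 or 3 or any 1 cisplatin library (up to 0.121). ATP5F1E changed sign. Its log2 difference was 0.04 with all libraries and -0.25 without vemurafenib replicate 1 (adjusted p = 0.0301 by edgeR).

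In complex II, SDHA differed by 0.34, SDHB by 0.37 and SDHD by 0.33. These calls were lost without cisplatin replicate 1 for SDHA (adjusted p = 0.0544 by edgeR), without cisplatin replicate 2 or 3 for SDHB (up to 0.0572) and without vemurafenib replicate 3 or cisplatin replicate 2 for SDHD (up to 0.0658). SDHC, which rose after both drugs, differed by 0.10 and did not pass. In complex III, UQCR11 differed by 0.63 and UQCR10 by 0.59. UQCRFS1, the Rieske iron-sulfur protein, differed by 0.36 (edgeR adjusted p = 0.0424), a call lost without any 1 library but vemurafenib replicate 2 (up to 0.132). UQCR11 was lost without cisplatin replicate 2 (0.0525), and UQCR10 without any 1 cisplatin library, vemurafenib replicate 1 or control replicate 2 or 3 (up to 0.109).

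Other genes of the pathway were read from lists of assembly factors, mitochondrial ribosomal proteins, electron carriers, the TCA cycle and regulators. For reading these lists, 22.0% of all genes rose and 22.9% fell in the vemurafenib comparison, 22.7% rose and 23.5% fell in the cisplatin comparison, and 23.0% and 20.8% were higher and lower in the direct one. Without vemurafenib replicate 1 these shares were 26.2% and 27.9%, 29.8% and 31.2%, and 26.5% and 24.0%. Assembly factors, which build the complexes but are not part of them, rose after vemurafenib in 25 of 52 cases and fell in 3 (48.1% and 5.77%, median log2 change 0.34). Without vemurafenib replicate 1, 23 rose and 3 fell (44.2% and 5.77%, where 26.2% and 27.9% of all genes did, median 0.23). After cisplatin 12 rose and 2 fell (median 0.15), and between the drugs 12 were higher after vemurafenib and 2 lower. Those 12 are 23.1% of the list each time, near the share of all genes with all libraries in the fit. Without vemurafenib replicate 1, 19 rose and 5 fell after cisplatin (36.5% and 9.62%, where 29.8% and 31.2% of all genes did). Between the drugs 11 were then higher after vemurafenib and 3 lower (21.2% and 5.77%, where 26.5% and 24.0% of all genes were). COX14, which helps translate and assemble the COX1 core of complex IV, went from 17.8 ± 1.11 to 35.0 ± 9.39 CPM after vemurafenib (log2 change 0.97, n = 3, or 0.73 without replicate 1). BCS1L, which inserts the Rieske protein into complex III, rose by 0.89 (0.75 without it), and COA1, a complex IV and I assembly factor, fell by 0.95 (0.80). After cisplatin NDUFAF1 rose by 0.83 and SURF1 by 0.77. SDHAF4 rose by 0.90 (edgeR adjusted p = 0.0447, from 0.895 to 1.67 CPM), a call lost without any 1 cisplatin library, vemurafenib replicate 2 or control replicate 1 or 3 (up to 0.164).

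Mitochondrial ribosomal proteins, which translate the subunits encoded in mitochondrial DNA, were counted in the same way. Of 77, 11 rose and 3 fell after vemurafenib, 3 rose and 18 fell after cisplatin, and 32 were higher and 1 lower after vemurafenib than after cisplatin (medians 0.13, -0.15 and 0.31). The 11 rises are 14.3% of the list, below the share of all genes, the 18 falls are 23.4%, near it, and the 32 are 41.6%, above it. The counts without vemurafenib replicate 1 were 11 and 15, 4 and 31, and 28 and 4, and the medians -0.02, -0.15 and 0.17. In those fits the 11 rises are 14.3% of the list, where 26.2% of all genes rose. The 15 and 31 falls are 19.5% and 40.3%, where 27.9% and 31.2% of all genes fell. The 28 are 36.4%, where 26.5% of all genes were higher. MRPS18A rose by 1.38 after vemurafenib (1.12 without replicate 1), from 30.4 ± 1.502 to 79.2 ± 23.2 CPM (n = 3). MRPS6 fell by 1.95 after vemurafenib and rose by 0.67 after cisplatin. MRPS30 fell by 0.82 and 1.01.

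**Figure D5:**
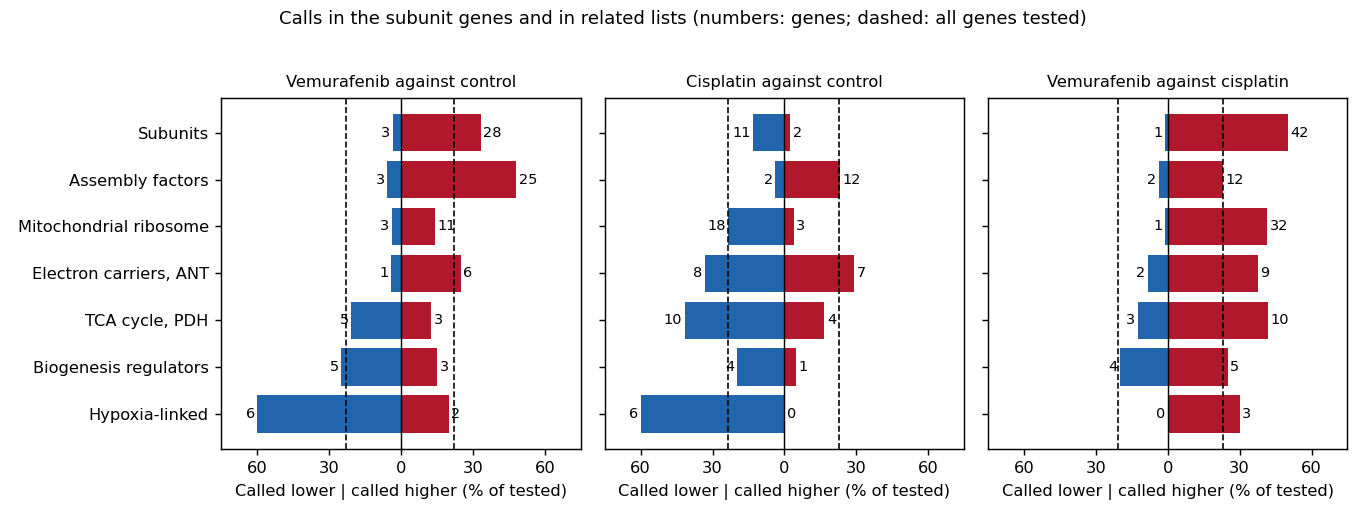
Share of tested genes called higher (red, to the right) or lower (blue, to the left) in the subunit genes and 6 related lists for each comparison, with the number of genes at each bar and dashed lines for the shares over all tested genes (ANT, adenine nucleotide transport; PDH, pyruvate dehydrogenase). The subunit genes have 28, 2 and 42 genes to the right.

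The regulators of these genes were mixed. Of 20, 3 rose and 5 fell after vemurafenib, 1 rose and 4 fell after cisplatin, and 5 were higher and 4 lower after vemurafenib than after cisplatin. Leaving out vemurafenib replicate 1 gave 5 and 8, 3 and 7, and 5 and 4. PPARGC1A went from 2.84 ± 0.757 CPM in controls to 0.727 ± 0.355 after vemurafenib (log2 change -1.94, edgeR adjusted p = 0.00257, n = 3), and stood at 2.704 ± 1.08 after cisplatin (adjusted p = 0.890 by edgeR). NRF1 fell after both drugs, by 0.55 and 1.04, from 21.8 ± 2.01 CPM. TFB1M, a methyltransferase of mitochondrial ribosomal RNA, fell by 1.93 after vemurafenib and by 0.58 after cisplatin. TFAM, which packages and transcribes mitochondrial DNA, fell by 0.38 and 0.70, and the first call was lost without control replicate 1 or 3 (up to 0.069 by edgeR). YY1 fell by 0.45 and 0.40, calls lost without any 1 control library (up to 0.0646 and 0.104) and, after cisplatin, without any 1 cisplatin library (up to 0.118). GABPA (-0.26 and 0.07) and ESRRA (-0.16 and 0.11) did not pass. ESRRA passed as lower after vemurafenib without vemurafenib replicate 1 (-0.31, adjusted p = 0.00789 by edgeR).

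Cytochrome c, the mobile carrier between complexes III and IV, is encoded by CYCS, which rose from 83.2 ± 6.41 to 119.8 ± 8.55 CPM after vemurafenib (log2 change 0.53, edgeR adjusted p = 0.00123, n = 3; 0.52 without replicate 1) and was at 92.5 ± 2.99 after cisplatin. Of 24 electron carriers and transporters, 6 rose and 1 fell after vemurafenib, 7 rose and 8 fell after cisplatin, and 9 were higher and 2 lower after vemurafenib than after cisplatin. With vemurafenib replicate 1 left out, 6 rose and 7 fell after vemurafenib (25.0% and 29.2%, where 26.2% and 27.9% of all genes did). Between the drugs, 9 were then higher after vemurafenib and 7 lower (37.5% and 29.2%, where 26.5% and 24.0% of all genes were). With the length trend 6 were higher and 6 lower (25.0% each, where 25.1% and 24.0% of all genes were). COQ8A, needed for ubiquinone synthesis, rose by 0.73 after vemurafenib, and VDAC2, an outer membrane channel, fell by 0.55 and 0.64 after the drugs. Of 24 genes of the TCA cycle and pyruvate dehydrogenase, 3 rose and 5 fell after vemurafenib and 4 rose and 10 fell after cisplatin. Between the drugs, 10 were higher after vemurafenib and 3 lower. Without vemurafenib replicate 1, 4 rose and 9 fell after vemurafenib (16.7% and 37.5%, where 26.2% and 27.9% of all genes did). PDK1, a kinase that inhibits pyruvate dehydrogenase, fell from 84.3 ± 10.9 to 15.7 ± 3.71 CPM after vemurafenib and to 20.3 ± 3.62 after cisplatin. PDK4 fell by 1.57 after vemurafenib and rose by 1.17 after cisplatin. IDH2 fell by 1.64 after cisplatin, to 8.26 ± 1.17 CPM, and was higher by 1.75 after vemurafenib than after cisplatin.

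Of 10 tested genes that link respiration to low oxygen, 2 rose and 6 fell after vemurafenib, with and without replicate 1, and 6 fell after cisplatin. Those that fell after both drugs were PDK1, CA9, BNIP3, VEGFA and EPAS1. BNIP3, a receptor for the removal of mitochondria, went from 434.7 ± 79.5 to 63.8 ± 10.98 and 65.5 ± 1.03 CPM (n = 3). CA9 went from 234.6 ± 45.2 to 2.795 ± 2.30 and 2.42 ± 0.339 CPM. LONP1, a mitochondrial protease that degrades a COX4 isoform when HIF1 is active, fell by 0.83 after cisplatin and had a log2 change of 0.07 after vemurafenib.

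Several readings carry a limit of mapping. Of the 87 genes, 46 have at least 1 pseudogene named after them in GENCODE 29, with 17 for COX6C and 12 each for NDUFA5 and NDUFB4, so reads of near-identical copies could be split or shared. The read-through genes NDUFC2-KCTD14 (131 counts in all) and ATP5MF-PTCD1 (53 counts, in 3 of 9 libraries) share sequence with NDUFC2 and ATP5MF and did not pass in any comparison with all libraries. Strand is not described in the labels, and antisense transcripts that overlap a gene may add to its count.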

How the data were processed

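RNA-seq was measured in 9 samples, 3 in each group. The aligner HISAT2 2.0.4 and the build hg38 are named per the submitters' processing notes. How counts were made, and on which annotation, is not given in the sources used here. In the table deposited by the authors, values are estimated counts per gene, of which 13.6% to 14.1% are not whole in a library, and these were rounded. Deposited TPM values were used for levels compared between genes and summed shares, and deposited FPKM values only to derive each gene's effective length (count over FPKM).

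Genes were filtered with filterByExpr (13989 of 18430 kept), scaled by TMM and fitted with edgeR 4.0.16 (R 4.3.3) in 1 quasi-likelihood model of the 3 groups over all 9 libraries. P-values were adjusted by Benjamini-Hochberg over all tested genes, with a threshold of 0.05. Log2 fold changes carry the model's SE. The script was tested on simulated data. Alternatives were DESeq2 1.42.0, limma 3.58.1 on log2 TPM, other scalings and filters, the compared groups alone, each library left out, a replicate block and a transcript-length offset. Leaving out vemurafenib replicate 1 together with the length offset was chosen after seeing the data.

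Same-numbered samples deviated together in the control and vemurafenib groups (correlations of 0.148, 0.126 and 0.156), which pairs them from the data, not from the labels. Gene positions and promoters come from RefSeq (GRCh38.p14), and all 87 genes matched by identifier. Genes named with values are a panel of core, regulatory and isoform subunits, up to 3 called rises and 3 called falls of largest size in each complex and comparison (mean of at least 50 counts in the higher group), up to 5 calls changed without vemurafenib replicate 1, and, of each related list, up to 3 called genes and the main regulators. A few further genes called under every alternative were named after their values were seen. The members, lists and this rule were chosen with earlier results of these data known. No sample was left out of the main values.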

Additional observations from a re-analysis of the deposited data

How the results depend on the processing

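The median change of the subunit genes kept its sign in each comparison under every alternative run, while the counts moved. After vemurafenib, 45 genes rose with total counts only (28.4% of all genes), 54 with limma on log2(TPM + 1) (25.2%), 52 on log2(TPM + 0.1) (25.1%) and 14 with only the compared groups (18.4%). With 1 library left out 8 to 36 rose (16.8% to 26.2% of all genes). Total counts moved the median of all genes to 0.11, against 0.40 for the subunit genes. Falls numbered 8 with the length offset (26.4% of all genes) and 8 with that and without vemurafenib replicate 1 (29.1%). They numbered 2 to 7 with 1 library left out, 7 of them without that replicate (18.8% to 27.9% of all genes). The median ranged from 0.14 to 0.37 with 1 library left out and reached 0.40 with total counts only. After cisplatin, 7 rose on either TPM scale, 8 with only the compared groups, 9 with the length offset, 11 with that and without vemurafenib replicate 1, and 2 to 8 with 1 library left out. Falls numbered 27 with only the compared groups (31.5% of all genes) and 26 with the offset and without that replicate (31.5%). They numbered 4 to 28 with 1 library left out (18.8% to 31.2% of all genes). Between the drugs, 27 were higher after vemurafenib with only the compared groups (18.4% of all genes). With 1 library left out 23 to 49 were (17.2% to 26.5% of all genes). Lower genes numbered 0 without a filter and 0 with only the compared groups by edgeR, 4 with the offset, 3 with that and without vemurafenib replicate 1, and 0 to 3 with 1 library left out. The median was 0.21 with the offset, 0.20 with both, and 0.21 to 0.46 with 1 library left out. ATP5F1E changed sign between the drugs, to -0.24 with the offset and -0.25 without vemurafenib replicate 1, with the offset or without it, and ranged from -0.25 to 0.18 with 1 library left out. The cause was not tested.

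With the replicate number as a block, 30 genes rose and 3 fell after vemurafenib (22.8% and 23.9% of all genes). After cisplatin 2 rose and 14 fell (24.1% and 24.9%), and between the drugs 42 were higher and 1 lower (23.9% and 22.1%). Same-numbered samples of control and cisplatin also deviated together (correlations of 0.167, 0.0948 and 0.129), where unlike numbers gave -0.151 to 0.0242. Those of the drugs (0.152, 0.0256 and 0.0783) were less distinct, as 1 pair of unlike numbers reached 0.114. The labels state no pairing. With 3 libraries a group, small changes are near the limit of detection.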
